A study of Bos taurus with 8 samples.

Results

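The miR-378, miR-193 and miR-365 microRNAs were followed in the mammary gland of dairy and beef heifers. Their entries were found by name, as every bovine array entry with the stem miR-378, miR-378b, miR-378c, miR-193a, miR-193b or miR-365 and any arm suffix, which gave 8 of the 763 miRNAs on the array. The 8 entries are bta-miR-378b, bta-miR-378c, bta-miR-193a, bta-miR-193a-3p, bta-miR-193a-5p, bta-miR-193b, bta-miR-365-3p and bta-miR-365-5p, written below without the prefix for cattle. No entry is named bta-miR-378 alone, because the array annotation lists it under the probes of miR-378b, so the signal called miR-378b here may come from either.

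MicroRNAs are short RNAs that lower the output of messenger RNAs they pair with, mostly through the seed near their 5′ end. In mammals miR-378 is made from an intron of PPARGC1B, the gene of a coactivator of mitochondrial and lipid metabolism, and in mouse fat-cell lines it favours lipid storage. The miR-193b and miR-365 pair is transcribed from a shared locus and was described in mouse as a promoter of brown fat differentiation. The mammary gland of a heifer that has not calved is a ductal epithelium embedded in a fat pad, so fat cells are among the cells these miRNAs could come from.

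The tissue came from udders of 8 healthy heifers that were not pregnant, 4 Holstein-Friesian (a dairy breed) and 4 Limousin (a beef breed), with no treatment named. Their age is 20 months in the sample characteristics and 2 years in the labels' protocol. One-colour Agilent miRNA arrays were used, 1 per animal, and the 4 animals of a breed are given as biological replicates. RNA was taken from whole tissue, so a miRNA present in fewer cells and one present at a lower amount per cell cannot be told apart.

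The probes show which of these entries the array can tell apart. Each probe is printed 5′ to 3′ as the array design gives it, in lower case. The longest probe of an entry is shown. In the miR-378 pair the capitals mark the 14 bases that both probes share:
miR-378b: gcCTTCTGACTCCAAG
miR-378c: aCTTCTGACTCCAAGtc

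In the miR-193 pair the capitals mark the 10 bases shared by the probes of miR-193a-3p and miR-193b:
miR-193a-3p: actGGGACTTTGTaggc
miR-193b: aaagcGGGACTTTGTg

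The third miR-193 entry is named miR-193a with no arm, and 12 bases of its probe, in capitals, are the reverse complement of a run in the miR-193a-3p probe, so that this probe would pair with the opposite strand:
miR-193a: aactgGCCTACAAAGTC

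In the miR-365-3p probe the capitals mark the 7 bases opposite bases 2 to 8 of the sequence it pairs with, the seed:
miR-365-3p: ataaggatttttagGGGCATTa

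The remaining arms, miR-193a-5p and miR-365-5p, have short probes and no capitals:
miR-193a-5p: tcatctcgcccgc
miR-365-5p: cacatctgccccca

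Positions are those of the array annotation, whose header names the UMD 3.1 assembly, and the spans given here are listed 1 base shorter than the probe. The miR-193b probe lies on chromosome 25 from 13339542 to 13339556 and the miR-365-5p probe on the same chromosome from 13344259 to 13344271, with 4702 bases between them. The miR-378c probe lies on chromosome 24 from 31729564 to 31729579, and that of the armless miR-193a entry on chromosome 14 from 2272052 to 2272067. The probes of miR-378b are listed on chromosomes 15, 4 and 7, those of miR-365-3p on chromosomes 19 and 25, and those of miR-193a-3p and miR-193a-5p at 2 places on chromosome 19. Whether each of these repeated positions belongs to the same assembly was not tested. In the RefSeq gene table, which uses the later ARS-UCD2.0 assembly, MIR378-1 lies within PPARGC1B and MIR378-2 within CALCR, the calcitonin receptor gene. MIR378C lies within ZNF521 and MIR193A-2 within ZNF623. MIR378B on chromosome 15, MIR193B, MIR193A and both MIR365 genes lie within no protein-coding gene. MIR193B and MIR365-1 are direct neighbours on chromosome 25, and 1 other gene stands between MIR193A and MIR365-2 on chromosome 19. A miR-365-3p signal can therefore come from either locus.

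Each array held 45780 spots for miRNAs, of which 28.6% to 35.5% were well above background, and 0 spots were saturated. The Holstein-Friesian arrays detected 243 to 267 miRNAs and the Limousin arrays 272 to 297. The Limousin arrays were brighter: the 75th percentile of probes detected on all 8 arrays was 557 to 939 in Holstein-Friesian and 943 to 1579 in Limousin. Values below are therefore signals scaled to that percentile, on the log2 scale, and differences are Limousin minus Holstein-Friesian. limma was run on the 270 miRNAs that every array of 1 breed or of both detected, and 41.9% of these passed a threshold of 0.05 after Benjamini-Hochberg adjustment. Limousin was the higher breed for 13.7% and the lower for 28.1%, a split that turns without scaling, where nearly all calls are higher. For 36.7% of the 270 no value of 1 breed lay within the range of the other, and for 20.7% this was with Limousin lower. All arrays were on 1 slide with each breed at its own position index, so the place on the slide cannot be told apart from breed.

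Of the 8 entries, 5 passed the detection filter: miR-378b, miR-378c, miR-193a-3p, miR-193a-5p and miR-365-3p. On this scale 4 of the 5 were lower in Limousin, 0 were higher and miR-193a-3p did not pass, against 28.1% lower among all 270. Without scaling or with the labelling spike-ins all 5 differences were above 0. There miR-193a-3p alone passed, as higher, against 64.1% higher among all 270 in either setting. The ranges of the breeds were apart for 3 of the 5, beside 36.7% of the 270. The median of the 5 differences was -0.67 and that of the 270 was -0.069. The 5 are not independent measurements, since the miR-378 probes share most of their bases and the 2 arms of miR-193a come from 1 hairpin. The breed difference of miR-378b ranked 39th from the lowest of the 270, miR-378c 45th, miR-193a-5p 53rd and miR-365-3p 82nd.

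**Figure D1:**
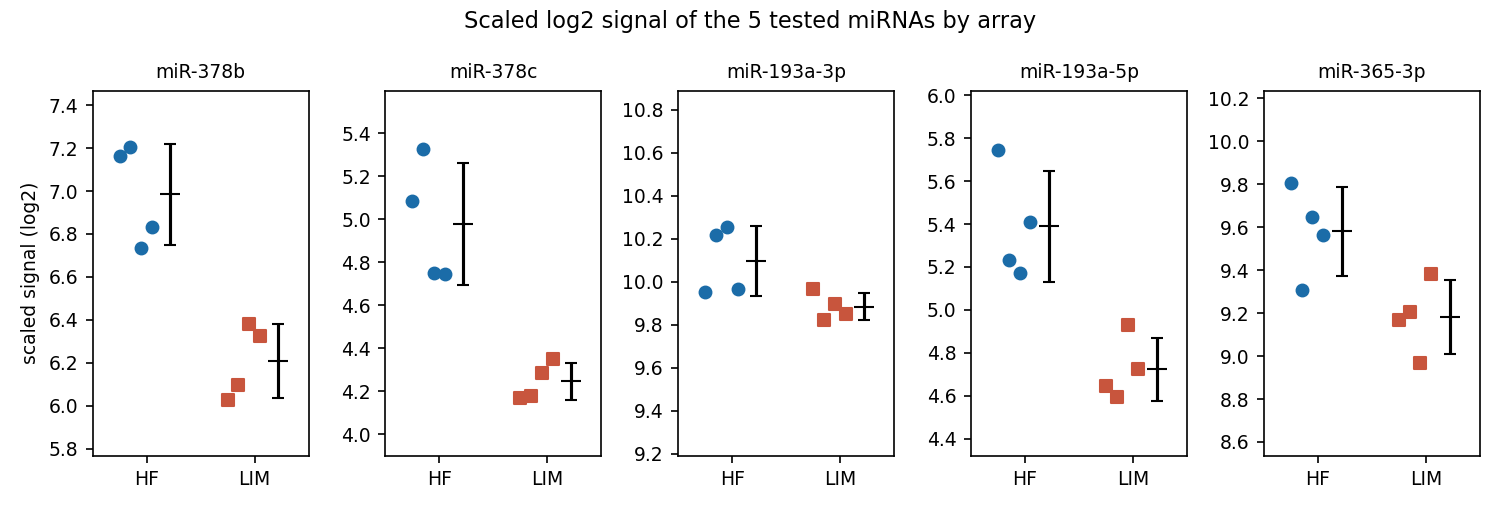
Scaled log2 signal of miR-378b, miR-378c, miR-193a-3p, miR-193a-5p and miR-365-3p on each array; circles are Holstein-Friesian (HF), squares Limousin (LIM), and the bar beside each group is the mean with its SD (n = 4), with the same span on every vertical axis. For miR-378b the Limousin arrays reach from 6.03 to 6.38, below the lowest Holstein-Friesian array at 6.74, whereas the breeds overlap for miR-193a-3p and miR-365-3p, and without scaling they overlap for miR-378b too.

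The first of the miR-378 entries, miR-378b, parted the breeds. Its scaled log2 signal in Holstein-Friesian replicates 1 to 4 was 7.16, 7.21, 6.74 and 6.83. In Limousin replicates 1 to 4 it was 6.03, 6.10, 6.38 and 6.33. Every Limousin array lay below every Holstein-Friesian array, and replicates 1 and 2 stood highest in Holstein-Friesian and lowest in Limousin. The means were 6.98 ± 0.24 (SD, n = 4) and 6.21 ± 0.17 (SD, n = 4), so that Holstein-Friesian exceeded Limousin 1.71-fold, with a 95% interval of 1.37 to 2.15 and a limma adjusted p of 0.00363, while the unscaled log2 difference was 0.077 with an adjusted p of 0.841.

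Before scaling, the miR-378b signal was 94.1, 85.7, 104.2 and 73.4 in Holstein-Friesian replicates 1 to 4 and 80.0, 112.3, 81.7 and 103.8 in Limousin. These unscaled groups overlap. The median difference of all 270 tested miRNAs was -0.069 after scaling and 0.78 without it. Relative to that median, miR-378b lay at -0.71 in either case, which follows from dividing each array by 1 number.

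The 3 probes of miR-378b differ by 1 base each in length and were all well above background on all 8 arrays. Their scaled log2 differences were -1.02 for 14 bases, -1.0 for 15 bases and -0.78 for 16 bases. They pointed the same way, but they are nested and so not separate evidence.

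The miR-378c entry, a close relative with the same 14-base stretch in its probe, also parted the breeds. Its scaled log2 signal was 5.09, 5.33, 4.75 and 4.74 in Holstein-Friesian replicates 1 to 4. In Limousin it was 4.17, 4.18, 4.28 and 4.35. The breeds did not overlap, and as for miR-378b the highest values were those of Holstein-Friesian replicates 1 and 2. The means of 4.98 ± 0.28 (SD, n = 4) and 4.25 ± 0.087 (SD, n = 4) put Holstein-Friesian above Limousin by 1.66-fold, with a 95% interval of 1.32 to 2.08 and a limma adjusted p of 0.00470, against an unscaled log2 difference of 0.12 with an adjusted p of 0.747. This value comes from the brighter, 17-base probe, which was detected on 3 of 4 Holstein-Friesian and 4 of 4 Limousin arrays, and the 16-base probe was detected on none. Under cyclic loess scaling miR-378c no longer passed (log2 difference -0.40; limma adjusted p = 0.0591).

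With each miRNA centred on its own mean over the 8 arrays, the profiles of miR-378b and miR-378c differed by a root mean square of 0.089 on the log2 scale. The nearest tested miRNA outside the named entries was miR-1225-3p, at 0.13 from miR-378b, followed by miR-30d and miR-210, each at 0.16. The median distance of miR-378b to all others was 0.45. How much of the miR-378c signal comes from RNA of the miR-378b type bound to the shared bases was not tested.

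The miR-193 family was represented by the arms of miR-193a. The 3′ arm, miR-193a-3p, was well above background on every array with both probes. Its scaled log2 signal was 9.95, 10.22, 10.26 and 9.96 in Holstein-Friesian replicates 1 to 4. In Limousin it was 9.97, 9.82, 9.90 and 9.85. The groups overlap, with Limousin replicate 1 level with Holstein-Friesian replicates 1 and 4. The Limousin mean was 9.88 ± 0.062 (SD, n = 4), the Holstein-Friesian SD was 0.16 (n = 4), and the log2 difference of -0.21 (95% confidence interval -0.47 to 0.043) did not pass (limma adjusted p = 0.168). Unlike the others it passed without scaling, in the opposite direction, at 0.64 (limma adjusted p = 0.0441), which is still below the median of 0.78 of all tested miRNAs there.

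The 5′ arm, miR-193a-5p, was read by its brighter, 13-base probe, detected on all arrays, and its 12-base probe was detected on 1 array of each breed. Its scaled log2 signal was 5.75, 5.23, 5.17 and 5.41 in Holstein-Friesian replicates 1 to 4. In Limousin it was 4.64, 4.60, 4.93 and 4.72. The breeds did not overlap, and Limousin replicate 3 came closest to the Holstein-Friesian arrays. With means of 5.39 ± 0.26 (SD, n = 4) and 4.72 ± 0.15 (SD, n = 4) the excess of Holstein-Friesian was 1.59-fold, with a 95% interval of 1.26 to 1.99 and a limma adjusted p of 0.00719, and the unscaled log2 difference was 0.19 with an adjusted p of 0.599.

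This 13-base probe has a GC content of 69.2%. After each array was corrected for GC content and length over the 270 miRNAs, the log2 difference of miR-193a-5p was -0.082 (limma adjusted p = 0.531). The same correction left miR-378b at -0.55 (limma adjusted p = 0.0127) and miR-378c at -0.64 (limma adjusted p = 0.00800). It moved miR-365-3p, whose 22-base probe has a GC content of 31.8%, from -0.40 to -0.87 (limma adjusted p = 0.00800). The call of miR-193a-5p was also lost with the 75th percentile of all probes (limma adjusted p = 0.0572) and with quantile normalization (limma adjusted p = 0.0508).

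Neither miR-193b nor the armless miR-193a entry was detected on any of the 8 arrays. The unscaled signal of miR-193b was between 0.749 and 2.37 on all arrays, and that of the armless miR-193a was below 0 on all, from -2.10 to -0.754. Both are also undetected in the software's own call per miRNA, so no fold is given. Whether miR-193b was absent from the tissue or only below what this probe can register was not tested.

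The neighbour of miR-193b, miR-365-3p, was by contrast well above background on every array with both of its probes. Its scaled log2 signal was 9.81, 9.31, 9.65 and 9.56 in Holstein-Friesian replicates 1 to 4. In Limousin it was 9.17, 9.21, 8.97 and 9.38. The groups overlap, because Holstein-Friesian replicate 2 lies below Limousin replicate 4. The means were 9.58 ± 0.21 (SD, n = 4) and 9.18 ± 0.17 (SD, n = 4), an excess of Holstein-Friesian of 1.32-fold with a 95% interval of 1.06 to 1.64 and a limma adjusted p of 0.0402, turning without scaling to a log2 difference of 0.45 in favour of Limousin (adjusted p 0.167 by limma). Its 21-base and 22-base probes gave the same difference, -0.40 each.

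The call of miR-365-3p was lost when Holstein-Friesian replicate 1, 3 or 4 or Limousin replicate 1, 2 or 3 was left out, with limma adjusted p of 0.109, 0.0827, 0.0854, 0.0969, 0.0774 and 0.107. It held without Holstein-Friesian replicate 2 or Limousin replicate 4. In the deposited value table, which carries the authors' own scaling, the difference of miR-365-3p was -0.12 (limma adjusted p = 0.399), whereas miR-378b stood at -0.61 (limma adjusted p = 0.0173), miR-378c at -0.46 (limma adjusted p = 0.0456) and miR-193a-5p at -0.43 (limma adjusted p = 0.0396).

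The opposite arm, miR-365-5p, was at the edge of detection. More than 50% of the spots of a probe were well above background on 1 of the 8 arrays, Limousin replicate 2, while the software's own call per miRNA was positive on 2 arrays of each breed. Its scaled log2 signal was 3.06 to 4.14 in Holstein-Friesian and 3.04 to 3.57 in Limousin. The groups overlap and the entry was not tested.

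**Figure D2:**
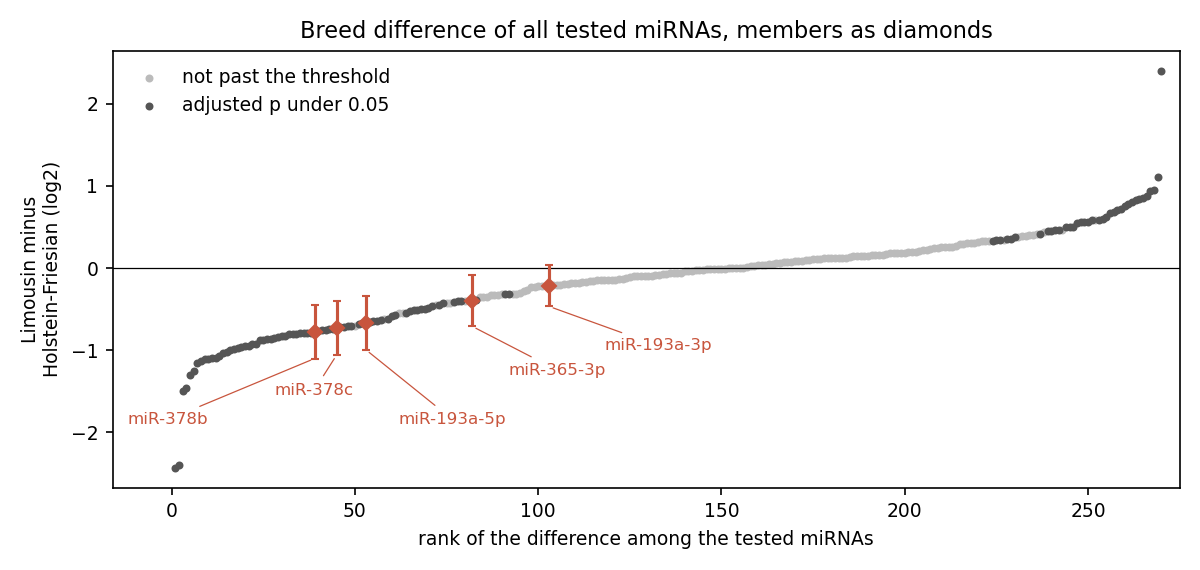
Limousin minus Holstein-Friesian log2 difference of each of the 270 tested miRNAs, ordered from the lowest; dark points passed the limma threshold of an adjusted p under 0.05, and diamonds with 95% confidence intervals are the 5 tested entries. miR-378b stands at rank 39 and miR-365-3p at rank 82 with this scaling, and miR-193a-3p is the 1 of the 5 whose interval includes 0; without scaling all 5 differences lie above 0.

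The scaling decides the sign of these differences, so each was set beside the median of all tested miRNAs under 7 scalings. The tests passed under 5 of the 7 for miR-378b, 4 for miR-378c, 3 for miR-193a-5p and for miR-365-3p, all of them as lower in Limousin, and under 2 for miR-193a-3p, as higher. In 5 of the 7 each array is divided by 1 number, so a distance to that median is the same there by construction, and quantile normalization and cyclic loess are the settings that could move it. Over all of them the distance was -0.71 to -0.65 for miR-378b and -0.66 to -0.42 for miR-378c. It was -0.60 to -0.40 for miR-193a-5p, -0.46 to -0.33 for miR-365-3p and -0.29 to -0.14 for miR-193a-3p.

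The treatment of background moved these distances more. With the background left in, or modelled by normexp, the median of all tested miRNAs fell to -0.36 and -0.38. The distance of miR-378b shrank from -0.71 to -0.40 and -0.36, that of miR-378c to -0.41 and -0.38, and that of miR-193a-5p to -0.38 and -0.34. miR-365-3p then stood at the median, at -0.032 and -0.0014 from it, and miR-193a-3p above it, by 0.16 and 0.19. The differences themselves changed little, and the same 4 entries passed as lower in Limousin. Most miRNAs passed there too, so these calls set the 4 less apart. Of all 270, 170 passed with the background left in (27 as higher) and 172 with normexp (26 as higher). With the background treatment used above 113 passed, 37 as higher.

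**Figure D3:**
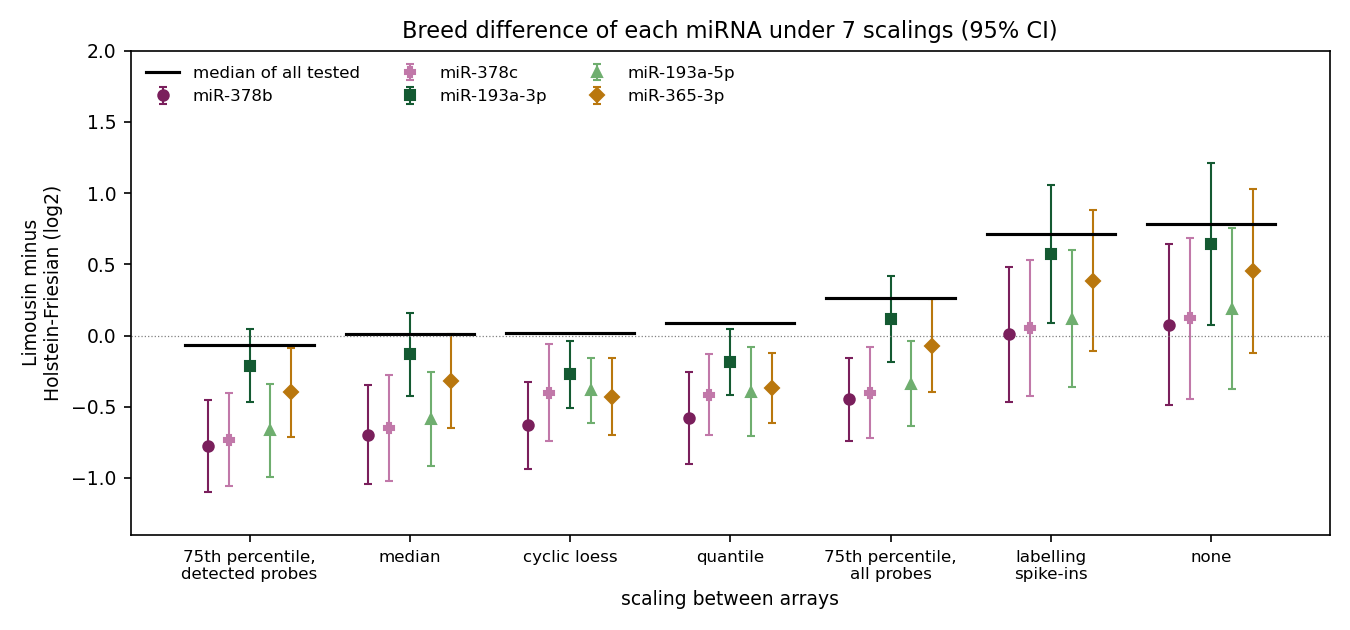
Limousin minus Holstein-Friesian log2 difference of the 5 tested entries, with 95% confidence intervals, under 7 ways of scaling the arrays; black bars are the median of all 270 tested miRNAs. With the labelling spike-ins or no scaling the median rises to 0.72 and 0.78 and all 5 differences lie above 0, with miR-378b at 0.0078 and 0.077; these scalings shift every miRNA and the median alike, so the gap to the black bar is fixed.

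A ratio of 2 miRNAs on the same array is the same whatever single factor scales that array, though not under a correction that differs between probes, and it asks whether they changed unequally. Among miR-193a-3p, miR-193a-5p, miR-365-3p and miR-378b, the 4 entries detected on all 8 arrays, 6 pairs were compared with two-sided exact permutation tests over 70 splits, whose smallest possible p is 0.0286. At a p under 0.05, 0 of the 6 pairs passed, either before or after Benjamini-Hochberg adjustment. The adjusted test could hardly pass, since at least 4 of the 6 pairs would have to reach the smallest p.

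The widest gap was that of miR-193a-3p over miR-378b. This log2 ratio was 2.79, 3.01, 3.52 and 3.13 in Holstein-Friesian replicates 1 to 4. In Limousin it was 3.94, 3.73, 3.52 and 3.53. The ratio was higher by 0.56 in Limousin, and Holstein-Friesian replicate 3 met the lowest Limousin array (exact permutation p = 0.0571, adjusted p = 0.229).

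The arms of miR-193a, which are cut from the same hairpin, gave a 3p over 5p log2 ratio of 4.2 to 5.09 in Holstein-Friesian and 4.97 to 5.32 in Limousin (difference 0.45; exact permutation p = 0.0857, adjusted p = 0.229). For miR-193a-3p over miR-365-3p, whose genes MIR193A and MIR365-2 have 1 gene between them on chromosome 19, the difference was 0.19, with ranges of 0.14 to 0.91 and 0.47 to 0.93 (exact permutation p = 0.343, adjusted p = 0.411). The remaining differences were 0.38 for miR-365-3p over miR-378b, -0.27 for miR-193a-5p over miR-365-3p and 0.11 for miR-193a-5p over miR-378b, with exact permutation p of 0.114, 0.171 and 0.600 and adjusted p of 0.229, 0.257 and 0.600. Whether these miRNAs changed unequally is not settled by these tests.

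The ratios also rested on single arrays and on the probes. Without Holstein-Friesian replicate 1 the difference of miR-193a-3p over miR-193a-5p was 0.29 and that of miR-193a-3p over miR-365-3p was 0.064. The latter was 0.11 without Limousin replicate 3 and 0.32 without Holstein-Friesian replicate 2. Without Holstein-Friesian replicate 2, miR-365-3p over miR-378b was at 0.21 and miR-193a-5p over miR-378b at -0.016, a change of sign. The difference of miR-193a-5p over miR-378b was 0.17 without Holstein-Friesian replicate 1 or 4, and that of miR-193a-5p over miR-365-3p was -0.41 without Limousin replicate 3.

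Correcting the arrays for GC content and probe length, a step applied to the ratios after the data were seen, changed them further. The difference between the miR-193a arms went from 0.45 to -0.013. That of miR-193a-5p over miR-365-3p turned from -0.27 to 0.79 and that of miR-365-3p over miR-378b from 0.38 to -0.32. The other pairs stood at 0.77 for miR-193a-3p over miR-365-3p, 0.46 for miR-193a-5p over miR-378b and 0.45 for miR-193a-3p over miR-378b. Of the 6 pairs 0 passed after adjustment, and miR-193a-5p over miR-378b had the lowest p (exact permutation p = 0.0286, adjusted p = 0.129).

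**Figure D4:**
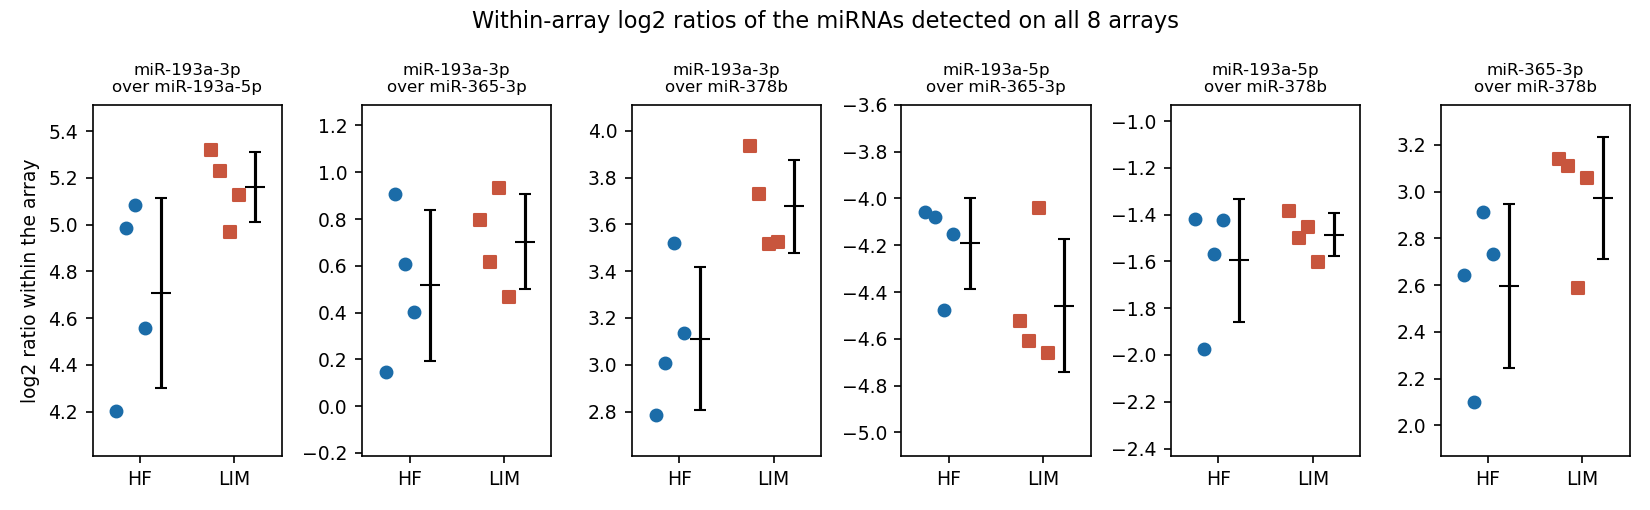
Within-array log2 ratios for the 6 pairs of entries detected on all 8 arrays; circles are Holstein-Friesian (HF), squares Limousin (LIM), bars the mean with its SD (n = 4), and the vertical axes have the same span. The ratio of miR-193a-3p over miR-378b comes nearest to parting the breeds, with Holstein-Friesian up to 3.52 and Limousin from 3.52.

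The profiles nearest to the other entries were found by the same root mean square distance over the 8 arrays. For miR-193a-3p they were miR-145 at 0.11, miR-429 at 0.12 and miR-500 at 0.13. For miR-193a-5p they were miR-2391 at 0.090, miR-370 at 0.11 and miR-2898 at 0.11. For miR-365-3p they were miR-652, miR-452 and miR-200c, each at 0.15. The distance between miR-193a-3p and miR-365-3p was 0.25, larger than that of miR-365-3p to these 3, and against a median distance of 0.35 to all others.

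Other miRNAs reported in fat-cell work were set beside these. A list of 30 stems matched 34 entries, 28 of them tested, of which 6 were higher in Limousin, 5 were lower and 17 did not pass, with a median difference of 0.13 against -0.069 for all 270. The 11 that passed of 28 are near the 41.9% of all tested miRNAs. Of the 28, 25 were detected on all 8 arrays. The others, miR-21-3p, miR-30b-3p and miR-33a, were detected on Limousin arrays only and entered the test through that breed. Without scaling 22 were higher and 0 lower, beside 64.1% higher and 0.741% lower among all 270. Among the 19 tested that are linked to fat-cell formation or enriched in fat, 2 were higher and 5 lower, near the 13.7% and 28.1% of all 270. Of these 19, 14 were higher and 0 lower without scaling, beside the same 64.1% and 0.741%. Limousin exceeded Holstein-Friesian 5.29-fold for miR-204 (limma adjusted p = 1.23e-06) and 1.75-fold for miR-21-5p (limma adjusted p = 0.0102), and both also passed as higher without scaling.

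In the other direction, miR-30a-5p stood at -0.80 on the log2 scale (limma adjusted p = 0.0115) and miR-30d at -0.54 (limma adjusted p = 0.00697), values that turned to 0.057 and 0.31 when the arrays were not scaled. The GC and length correction ended both calls, at -0.45 (limma adjusted p = 0.151) and -0.17 (limma adjusted p = 0.322). Among the 9 tested that are known to restrain fat-cell formation, 4 were higher and 0 lower, beside 13.7% and 28.1% of all 270. The counts were 8 higher and 0 lower without scaling, beside 64.1% higher of all 270 there, and 2 higher and 2 lower with normexp. Of all 270, 172 passed with normexp, 26 of them as higher. The excess of Limousin was 1.94-fold for miR-155, which is also on the leukocyte list (limma adjusted p = 0.00121), and 1.42-fold for miR-222 (limma adjusted p = 0.00663), and both passed without scaling too.

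Since miR-378 is abundant in muscle as well as in fat, and the gland is a mixture, markers of the cells it could hold were read on the same scale. No miRNA on these lists is specific to fat cells, so the fat-cell origin named for these miRNAs could not be checked here. All 6 epithelial markers were detected on all 8 arrays, and their summed scaled signal was 17792 to 19968 in Holstein-Friesian and 18822 to 20644 in Limousin. On this scale 0 of the 6 passed, whereas without scaling all 6 were higher in Limousin, beside 64.1% of all 270 there. Of the 7 skeletal muscle markers 0 were detected on all arrays, and miR-206, miR-208a, miR-208b and miR-499 were detected on none. miR-1 was detected on 2 Holstein-Friesian and 4 Limousin arrays, miR-133b on 1 and 2, and miR-133a on 0 and 1. The log2 difference of miR-1 was 0.26 (limma adjusted p = 0.487), and it passed as higher without scaling and as lower with normexp. With normexp 172 of all 270 passed, 26 of them as higher. The sum of the 7, which also adds the signal of undetected entries, was 54.5 to 99.6 in Holstein-Friesian and 46.5 to 100.3 in Limousin.

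The 4 fibroblast markers were detected on all arrays. The 3 miR-199 entries among them, which include both arms of miR-199a and so are not independent, were higher in Limousin, beside 13.7% of all 270. The fibroblast marker miR-214 stood at 0.0048 (limma adjusted p = 0.981). All 4 were higher without scaling, beside 64.1% of all 270 there, and 2 were with the GC and length correction, beside 18.1%. Their summed scaled signal was 4994 to 5649 in Holstein-Friesian and 6609 to 8192 in Limousin. Of the 6 leukocyte markers 4 were detected on all arrays, while miR-142-3p and miR-146a were detected on none. Limousin was higher for 2 of the 4, beside 13.7% of all 270, and for all 4 without scaling, beside 64.1% there. With normexp 2 were higher and 1 lower, where 172 of all 270 passed, 26 of them as higher. With the GC and length correction 1 was higher, beside 18.1% of all 270. The sums were 1028 to 1541 in Holstein-Friesian and 1479 to 1897 in Limousin. The sums of the smooth muscle markers miR-143 and miR-145 were 4541 to 4955 in Holstein-Friesian and 3734 to 4208 in Limousin. Of these 2 markers 0 passed (limma adjusted p = 0.640 and 0.0920), whereas without scaling both were higher in Limousin, beside 64.1% of all 270 there. The part of these markers in the differences of miR-378b, miR-378c, miR-193a-5p and miR-365-3p was not tested.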

How the data were processed

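Per the file headers, the authors used Agilent Feature Extraction 10.10.1.1, and the deposited scanner files give each spot's intensity, already corrected for a spatially fitted background, with no normalization between arrays. The deposited value table holds log2 values; each column equals log2 of the software's total signal per miRNA minus a constant, to within 9.7e-06, its column medians ran from -9.79 to -8.53, and the scale is not given in the sources used here. It served as an alternative.

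Control spots and outlier spots were left out and the spots of a probe averaged. Detection of a probe required over 50% of its spots well above background. Each array was scaled by its 75th percentile, taken across probes that all 8 detected, relative to the mean of the 8 percentiles; values were then floored at 1 and log2-transformed. A miRNA took its probe with the highest mean. limma 3.58.1 in R 4.3.3 (lmFit, eBayes) compared breeds, with Benjamini-Hochberg adjustment over all tested miRNAs at 0.05. The fit was tested on simulated data. The members, the lists and the rule for named miRNAs (every entry, the 3 nearest profiles of each entry detected on all arrays, and the 2 largest calls per direction in each of the 2 fat-cell lists) were chosen with earlier results of these data known. Alternatives covered scaling, background, probe summary, filter, floor, the total signal per miRNA, variance model, array weights, replicate block, GC content and length, and left-out arrays. The number of arrays limits the precision. Levels of different probes were not compared with each other, but the marker sums add them, so that brighter probes weigh more in a sum. Mature miRNA sequences were not used here.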

Additional observations from a re-analysis of the deposited data

Results flagged for a closer look

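Of 21 groups of 4 arrays examined, 1 had an array far from the others, where chance flags about 1 group in 20. The log2 ratio of miR-365-3p over miR-378b was 2.59 on Limousin replicate 3, against 3.06 to 3.14 on the other 3 Limousin arrays.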

How the results depend on the processing

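The call of miR-378b as lower in Limousin held under all alternatives other than no scaling and spike-in scaling, and with each array left out (log2 difference -0.86 to -0.70). Scaling set the sign. Without scaling the log2 differences were 0.64 for miR-193a-3p, 0.19 for miR-193a-5p, 0.45 for miR-365-3p, 0.077 for miR-378b and 0.12 for miR-378c; with the labelling spike-ins they were 0.57, 0.12, 0.39, 0.0078 and 0.053. In either case 1 of the 5 passed, and with the 75th percentile over all probes 2 did. Of the other fat-cell miRNAs 22 passed under each of no scaling and spike-in scaling, instead of 11; the 75th percentile over all probes gave 16 higher and 0 lower, the values the authors deposited 13 higher and 0 lower, quantile normalization 10 and 4, and the GC and length correction 9 and 1.

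Over all 270 miRNAs 113 passed, 37 higher and 76 lower. The count was 175 without scaling (173 higher, 2 lower), 177 with spike-ins (173 and 4), 172 with normexp (26 higher), 170 without background correction (27 higher) and 61 with the GC and length correction and the replicate block. The split was 104 and 30 with the percentile over all probes, 55 and 43 with quantile normalization, 45 and 59 with cyclic loess, 81 and 28 in the deposited table, 44 and 56 with the total signal per miRNA and 49 and 31 with the GC and length correction. Leaving out 1 array gave 71 to 142 calls over all miRNAs (71 without Limousin replicate 1, 73 without Holstein-Friesian replicate 4), 3 to 4 among the 5 and 9 to 13 in the fat-cell list. The exact test of the ratios was not run with an array left out.

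Same-numbered arrays of the 2 breeds did not deviate together (correlations of deviations -0.31, -0.25, -0.45 and 0.32 for numbers 1 to 4), and only number 4 correlated best with its own number. With the replicate number as a block 84 miRNAs passed, 3 of the 5 entries and 8 fat-cell miRNAs, and the call of miR-365-3p was lost (limma adjusted p = 0.0976). The cause of these changes was not tested.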
